A study of Mus musculus with 12 samples.

Results

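The 10 genes described here encode the mouse NF-κB subunits and the inducible proteins that hold the pathway in check, and they were taken by symbol from the 52636 genes of the count table. The 5 subunit genes are Nfkb1, Nfkb2, Rela, Relb and Rel. The 5 inhibitor genes are Nfkbia, Nfkbie and Tnfaip3, with Nfkbiz and Bcl3, which encode IκB-like proteins of the nucleus and are counted with the inhibitors here although they can also act as co-activators. All 10 passed the filter on low counts that left 17993 genes for testing. Whole skin of BALB/c mice was sequenced in 4 groups of 3 libraries. Control mice received the injection vehicle, and LL37 mice received LL37, the active peptide of human cathelicidin, by intradermal injection of 40 μl into the back skin 2 times per day for 2 days, at about 8 weeks of age. The control + RAPA and LL37 + RAPA groups were also given rapamycin (RAPA), an inhibitor of the mTORC1 kinase complex, which the study's methods give as 4 mg/kg per day by intraperitoneal injection, and the other 2 groups were given the RAPA vehicle. The methods describe 3 independent biological samples for each group and the labels do not tie a library to an animal, so p-values measure the spread between these samples.

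NF-κB proteins form dimers that are kept in the cytoplasm by IκB proteins until receptors such as those for TNF, interleukin-1 or microbial products trigger IκB degradation. The released dimers bind κB sites in DNA and switch on cytokine and chemokine genes together with genes of their own inhibitors, so that IκBα (from Nfkbia), IκBε (from Nfkbie) and the ubiquitin-editing enzyme A20 (from Tnfaip3) are remade and end the response. In skin, keratinocytes, resident immune cells and recruited leukocytes all use this pathway.

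The start-site windows of the members are shown first, because the inducible members are known for κB sites close to their promoters. RefSeq start-site windows on GRCm38.p6, the build the mm10 label also names, were at hand for 7 of the 10 members (Nfkb2, Rela, Rel, Nfkbia, Nfkbie, Tnfaip3 and Bcl3). They run from 250 bases before to 50 bases after a start site, 300 bases in all, and no entry matched Nfkb1, Relb or Nfkbiz. The NF-κB decamer consensus, searched on both strands with overlapping matches counted, was present in 6 of the 7 (Rela had no match). It was present in 8.46% of all 32851 windows and in at least 1 window of 9.55% of all 27025 genes with an entry. Matches are descriptions of the letters and were not tested for binding. For the members whose values are followed most closely below, the 250 bases upstream of a start site are printed 5′ to 3′ on the strand of the gene, and capitals mark the matches:

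Nfkbia (chr12:55492648-55492897, minus strand): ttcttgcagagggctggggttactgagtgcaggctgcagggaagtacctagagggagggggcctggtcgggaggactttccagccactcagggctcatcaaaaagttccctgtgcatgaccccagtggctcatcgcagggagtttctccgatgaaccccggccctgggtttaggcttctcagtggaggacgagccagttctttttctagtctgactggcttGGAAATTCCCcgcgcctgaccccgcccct

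Tnfaip3 (chr10:19015411-19015660, minus strand): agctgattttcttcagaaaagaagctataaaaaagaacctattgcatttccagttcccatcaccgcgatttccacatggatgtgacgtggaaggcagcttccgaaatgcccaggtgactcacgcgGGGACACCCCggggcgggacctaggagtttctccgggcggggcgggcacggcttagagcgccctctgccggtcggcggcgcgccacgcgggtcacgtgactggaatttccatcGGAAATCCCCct

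Rel (chr11:23770970-23771219, minus strand): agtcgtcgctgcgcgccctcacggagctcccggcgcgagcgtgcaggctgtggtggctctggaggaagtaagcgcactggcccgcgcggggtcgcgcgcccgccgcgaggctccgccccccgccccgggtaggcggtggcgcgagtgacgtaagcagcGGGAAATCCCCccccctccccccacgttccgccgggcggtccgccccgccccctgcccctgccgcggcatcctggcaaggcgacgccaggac

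Nfkb2 (chr19:46304487-46304736, plus strand): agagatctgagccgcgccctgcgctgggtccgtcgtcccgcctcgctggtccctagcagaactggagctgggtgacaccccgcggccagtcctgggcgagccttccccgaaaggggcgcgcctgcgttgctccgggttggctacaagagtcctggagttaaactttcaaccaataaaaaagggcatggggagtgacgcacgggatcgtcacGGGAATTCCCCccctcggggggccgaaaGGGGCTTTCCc

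The Rel and Nfkb2 capitals include overlapping matches. In Nfkbie and Bcl3 the match is printed within 30 bases, and that of Bcl3 began 3 bases into the transcribed part:

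Nfkbie (chr17:45555584-45555613, plus strand): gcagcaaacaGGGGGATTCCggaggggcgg

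Bcl3 (chr7:19822734-19822763, minus strand): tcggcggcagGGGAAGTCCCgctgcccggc

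The libraries held between 15734559 and 23271784 counts on genes, so that 3 counts corresponded to 0.129 to 0.191 CPM (gene counts brought to one library size with TMM), far below each member's level, and these limits cover counting error only. The first principal component took 68.3% of the variance of log2 CPM. LL37 replicate 3 stood apart from its group, at 64.4 on this component against 129 and 133 for the other LL37 libraries, while the LL37 + RAPA libraries lay from 0.527 to 29.8, and the counts of members with an adjusted p under 0.05 are therefore also given without it. Keratinocyte markers were present in every library. Summed over 6 genes, they lay at 20522 to 28104 CPM in control and 20001 to 25272 CPM in control + RAPA skin. In LL37 they lay at 27574 to 37982 CPM and in LL37 + RAPA at 22147 to 23572 CPM. Of the 6, 2 were called higher in LL37 than in control and 2 higher than in LL37 + RAPA, with 0 lower in either (edgeR). Other cell types differed between groups as well. The summed level of 8 neutrophil markers was 5.43 to 22.7 CPM in control skin, 6.97 to 11.7 CPM in control + RAPA, 115 to 782 CPM in LL37 and 55.9 to 236 CPM in LL37 + RAPA, and 7 of the 7 tested were higher in LL37 than in control and 2 of 7 higher than in LL37 + RAPA (edgeR). Summed over 8 genes, macrophage markers lay at 718 to 1224 CPM in control, 730 to 851 CPM in control + RAPA, 1827 to 2203 CPM in LL37 and 1661 to 2754 CPM in LL37 + RAPA skin. Of the 8, 7 were called higher in LL37 than in control and 4 higher than in LL37 + RAPA, with 0 lower in either (edgeR). Of 6 tested T cell markers, 0 were called against control and 3 were called higher in LL37 than in LL37 + RAPA, with 0 lower (edgeR). The 36 skeletal muscle markers fell from 47918 to 68881 CPM in control to 51.1 to 1122 CPM in LL37, with 4105 to 8944 CPM in LL37 + RAPA, and the 35 tested were lower in LL37 than in either group (edgeR, median log2 fold change −6.92 and −3.82). The summed level of 6 adipocyte markers was 997 to 1699 CPM in control, 327 to 612 CPM in LL37 and 2007 to 2239 CPM in LL37 + RAPA, and all 6 were likewise lower in LL37 in both comparisons (median −1.66 and −2.36). Of all tested genes, 21.0% were called higher and 3891 of 17993 lower in LL37 than in control. Against LL37 + RAPA, 11.8% were called higher in LL37 and 2239 of 17993 lower. The part of the marker shifts in the members' changes was not tested. In whole skin, a change in the number of cells of a type and a change in RNA per cell cannot be told apart.

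In control skin, the levels of the members were compared per length of exon, as CPM per kilobase. Nfkbia was the most abundant, at 112 ± 34.9 (SD, n = 3), followed by Rela, the gene of the p65 subunit, at 27.0 ± 3.11. Nfkbiz at 17.1 ± 1.56 and Nfkb2, the gene of p100/p52, at 16.1 ± 0.594 were neighbours whose libraries overlapped. Relb (11.5 ± 2.61) and Nfkb1 (9.73 ± 0.693), the gene of p105/p50, overlapped as well, and Bcl3 lay below both at 7.11 ± 0.496. Tnfaip3 (4.48 ± 0.990), Nfkbie (4.0 ± 1.4) and Rel (3.73 ± 0.803), the gene of c-Rel, were lowest and overlapped one another. In LL37 skin Bcl3 was second after Nfkbia, at 53.8 ± 28.0 CPM per kilobase against 188 ± 88.3, though its libraries overlapped those of Nfkbiz, Rela, Nfkb2 and Relb. Rel had the lowest mean there, at 6.59 ± 1.99, and overlapped Tnfaip3 and Nfkbie.

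**Figure D1:**
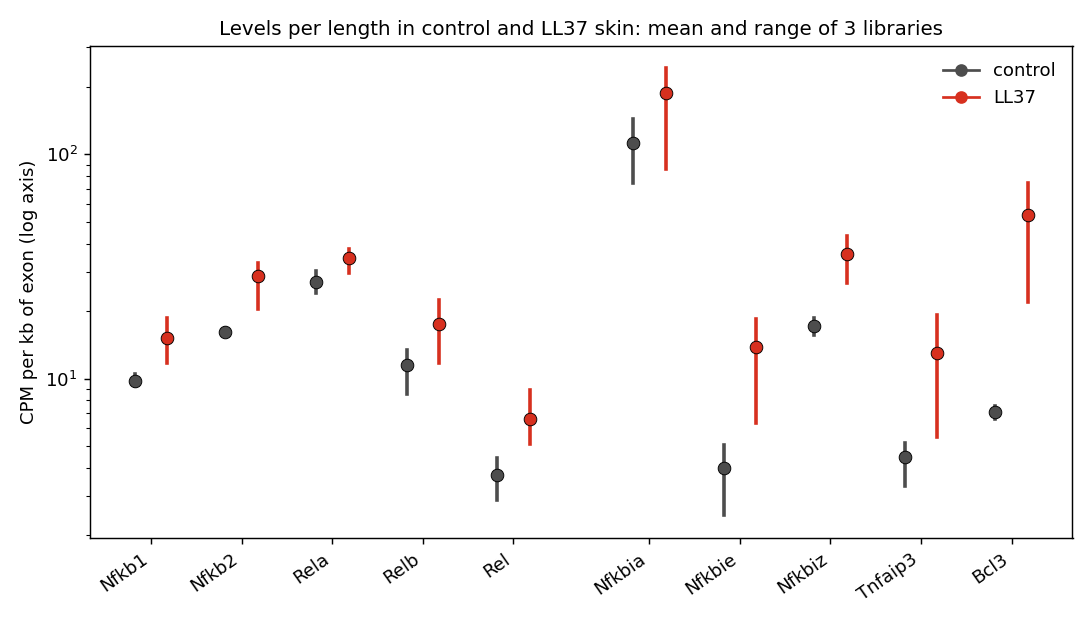
Level of each member as CPM per kilobase of exon (log axis) in control and LL37 skin, with points for the mean and lines from the lowest to the highest of 3 libraries. Nfkbia was highest in both groups, and Bcl3 moved from a mean of 7.11 in control to 53.8 in LL37 skin.

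The comparison of LL37 with control skin asks which genes of the NF-κB system changed in rosacea-like inflammation. All 5 subunit genes and 4 of the 5 inhibitor genes rose, at an adjusted p under 0.05 (edgeR, Benjamini-Hochberg over all tested genes). For comparison, 42.6% of all tested genes were called in this comparison and 21.0% were called higher. The log2 fold changes of the subunits ran from 0.35 to 0.84, with a median of 0.65, and those of the 5 inhibitors, Nfkbia at 0.75 without a call included, ran up to 2.92 with a median of 1.54, against a median of −0.0049 over all tested genes. None of the subunits and 4 of the inhibitors (Nfkbie, Nfkbiz, Tnfaip3 and Bcl3) also exceeded a log2 fold change of 1, which 8.73% of all tested genes did in the upward direction. The LL37 libraries lay wholly above the control libraries for 7 members (Nfkb1, Nfkb2, Rel, Nfkbie, Nfkbiz, Tnfaip3 and Bcl3), as they did for 23.8% of all tested genes. Without LL37 replicate 3, all 10 members were called, with 47.8% of all tested genes called.

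**Figure D2:**
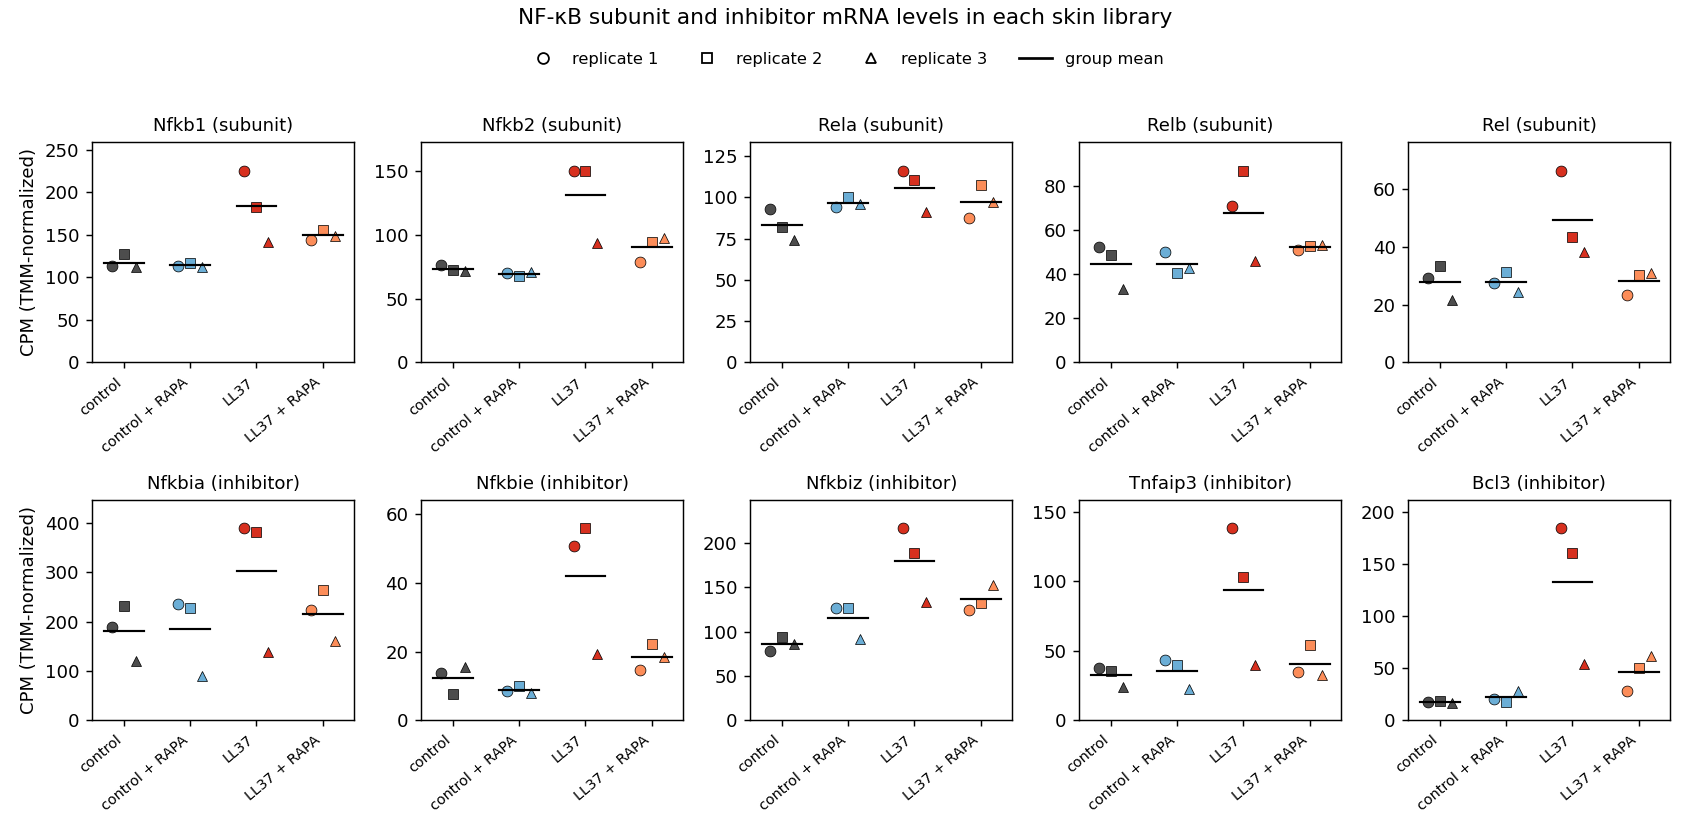
CPM of the 10 members in each of 12 libraries, by group, with symbols for the replicate number and a line for the mean of 3 libraries. LL37 replicate 3 was the lowest LL37 library in all 10 panels, with the highest at 1.28 (Rela) to 3.47 (Tnfaip3) times its level, and the LL37 libraries overlap control libraries for Rela, Relb and Nfkbia only.

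Among the subunits, Nfkb2 encodes the p100 precursor, which partners RelB in the non-canonical branch. Nfkb2 stood at 76.7, 73.0 and 71.4 CPM in control and at 150, 151 and 94.1 CPM in LL37 libraries. All LL37 libraries were above all control libraries, with replicate 3 the lowest of them, and the log2 fold change was 0.84 ± 0.16 (SE; edgeR adjusted p = 0.00134). Rel, whose product c-Rel is best known from lymphocytes and myeloid cells, stood at 29.0, 33.2 and 21.4 CPM in control and at 66.2, 43.3 and 38.2 CPM in LL37 libraries. The groups did not overlap and LL37 replicate 1 was the highest, with a log2 fold change of 0.82 ± 0.22 (edgeR adjusted p = 0.0101). Nfkb1 stood at 113, 127 and 112 CPM in control and at 226, 183 and 142 CPM in LL37 libraries, again with no overlap (log2 fold change 0.65 ± 0.14, edgeR adjusted p = 0.00283). Rela and Relb rose least, by 0.35 (adjusted p = 0.031) and 0.60 (adjusted p = 0.0402) in edgeR, and their groups overlapped. Rela was at 74.1 to 93.1 CPM in control and 91.0 to 116 CPM in LL37 skin, and Relb at 33.2 to 52.4 CPM and 45.8 to 86.8 CPM. The call for Rela was lost without control replicate 2 or 3 or LL37 replicate 1 or 2, and that for Relb without any of these 4 libraries or 5 of the 6 RAPA libraries (all but control + RAPA replicate 1), with adjusted p up to 0.129 and 0.156 over all alternatives. The table gives no strand, so reads of Nfkb2 and of the overlapping Psd and AC114539.1 could not be told apart where the genes overlap. Gm43430 overlaps Nfkb1 on the same strand, so strand would not separate their reads.

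Bcl3 changed most among the inhibitors. It stood at 17.8, 18.7 and 16.3 CPM in control and at 185, 161 and 54.2 CPM in LL37 libraries. All LL37 libraries were above every control library, LL37 replicate 3 by the least, and the log2 fold change was 2.92 ± 0.42 (7.56-fold, edgeR adjusted p = 0.000263). The antisense genes Gm16175 and Gm16174 overlap Bcl3 and their reads could not be told apart from it. Nfkbie stood at 13.6, 7.48 and 15.4 CPM in control and at 50.7, 55.9 and 19.2 CPM in LL37 libraries. Its groups did not overlap, LL37 replicate 3 being the nearest to control, and the log2 fold change was 1.78 ± 0.36 (edgeR adjusted p = 0.00226). Tnfaip3 stood at 37.3, 35.6 and 24.1 CPM in control and at 138, 104 and 39.8 CPM in LL37 libraries. Replicate 3 was the lowest of each group and LL37 replicate 3 was only just above the highest control library, with a log2 fold change of 1.54 ± 0.40 (edgeR adjusted p = 0.00932). Nfkbiz, which encodes IκBζ, a nuclear protein needed for secondary inflammatory response genes, stood at 78.2, 93.9 and 85.9 CPM in control and at 217, 188 and 134 CPM in LL37 libraries. The groups did not overlap (log2 fold change 1.06 ± 0.18, edgeR adjusted p = 0.00072). These 4 genes were called under each of the 23 alternatives tried, with the highest edgeR adjusted p at 0.0462, for Tnfaip3.

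Nfkbia was the member without a call. It stood at 190.0, 231 and 120.1 CPM in control, at 236, 227 and 89.2 CPM in control + RAPA, at 389, 381 and 139 CPM in LL37 and at 224, 264 and 161 CPM in LL37 + RAPA libraries. Replicate 3 was the lowest library in each of the 4 groups, and LL37 replicate 3 was below control replicates 1 and 2. The log2 fold change in LL37 against control was 0.75 with a 95% interval from −0.19 to 1.68 (edgeR adjusted p = 0.182). Without LL37 replicate 3 it was 1.12 (adjusted p = 0.0256), and without the replicate 3 libraries of all 4 groups, an alternative chosen after seeing the data, it was 0.89 (adjusted p = 0.00199). Tnfaip3 was the other member that was lowest in replicate 3 of every group, a pattern that 533 of all tested genes (2.96%) showed.

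Subunits and inhibitors were then set side by side in each library, as the mean log2 CPM of each class minus its mean in control. In LL37 replicates 1, 2 and 3 the subunits stood at 0.88, 0.75 and 0.26 and the inhibitors at 2.02, 1.88 and 0.60. The inhibitor class was thus further from control than the subunit class by 1.14, 1.14 and 0.33, while in the 3 control libraries this difference was −0.0097, −0.068 and 0.078. In LL37 + RAPA libraries it was 0.31, 0.57 and 0.36, and in control + RAPA libraries it was 0.19, 0.15 and −0.22. The LL37 + RAPA range overlapped LL37 replicate 3 and no control library. The summed neutrophil markers followed a like order, at 641, 782 and 115 CPM in LL37 and 55.9, 236 and 205 CPM in LL37 + RAPA libraries, and their part in the members' levels was not tested.

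**Figure D3:**
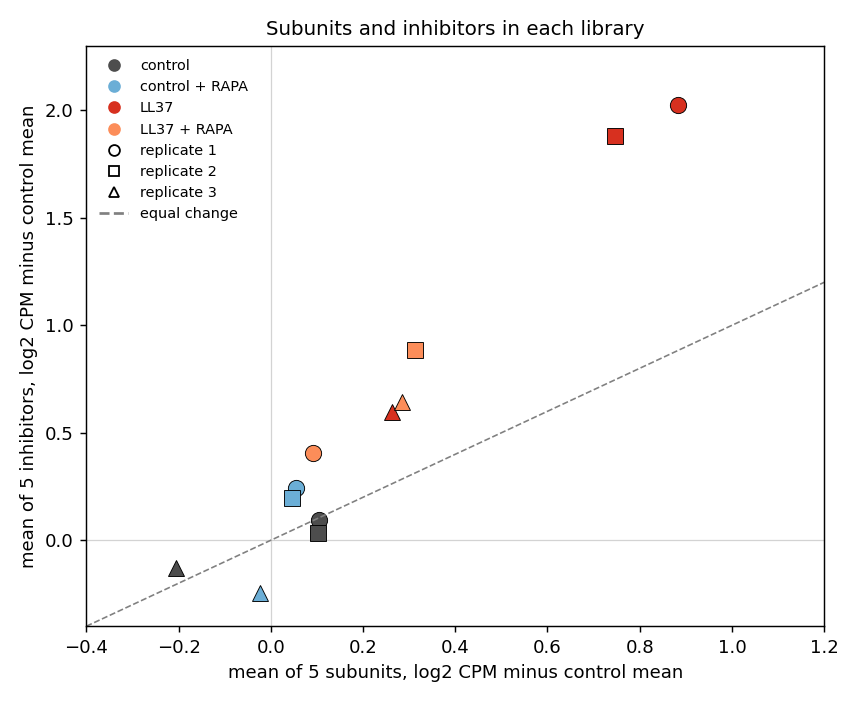
Mean log2 CPM of the 5 inhibitors against that of the 5 subunits in each library, both minus the mean of control, with the dashed line for equal change. LL37 replicates 1 and 2 lie furthest out, at 2.02 and 1.88 for the inhibitors, and LL37 replicate 3 lies at 0.60 among the LL37 + RAPA libraries.

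The comparison of LL37 with LL37 + RAPA asks which of these changes differed when mTORC1 was inhibited. Nfkb2, Rel, Nfkbie, Tnfaip3 and Bcl3 were higher in LL37 than in LL37 + RAPA skin, 2 of 5 subunits and 3 of 5 inhibitors (edgeR), where 24.2% of all tested genes were called and 11.8% were called higher. The log2 fold changes of all 10 members ran from 0.12 (Rela) to 1.51 (Bcl3). Their median was 0.38 for subunits and 1.19 for inhibitors, against −0.0042 over all tested genes. Control skin enters the previous comparison and LL37 skin enters both, so the 2 comparisons are not independent.

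Rel was the only member whose groups did not overlap, with LL37 above LL37 + RAPA in every library, as for 17.6% of all tested genes. It stood at 23.2, 30.3 and 30.9 CPM in LL37 + RAPA against 66.2, 43.3 and 38.2 CPM in LL37 libraries, with a log2 fold change of 0.81 ± 0.22 (edgeR adjusted p = 0.0212). The LL37 + RAPA libraries of Rel lay within its control range of 21.4 to 33.2 CPM. Bcl3 stood at 28.2, 49.8 and 62.1 CPM in LL37 + RAPA libraries, so that LL37 replicate 3 at 54.2 CPM fell inside that range (log2 fold change 1.51 ± 0.39, edgeR adjusted p = 0.0188). Tnfaip3 stood at 34.5, 54.4 and 32.3 CPM and Nfkbie at 14.7, 22.1 and 18.3 CPM in LL37 + RAPA libraries. For both, LL37 replicate 3 was again inside the range and LL37 replicates 1 and 2 were well above it. Their log2 fold changes were 1.21 ± 0.40 (adjusted p = 0.0446) and 1.19 ± 0.35 (adjusted p = 0.0319) in edgeR. Nfkb2 stood at 79.1, 94.6 and 97.6 CPM in LL37 + RAPA libraries and overlapped LL37 in replicate 3 only (log2 fold change 0.54 ± 0.16, edgeR adjusted p = 0.0275). The others did not pass, namely Nfkb1 (0.30, adjusted p = 0.133), Nfkbiz (0.40, adjusted p = 0.123), Relb (0.38, adjusted p = 0.215), Nfkbia (0.49, adjusted p = 0.428) and Rela (0.12, adjusted p = 0.487).

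These calls depended on single libraries. Of the 10 members, 0 were called when replicate 1 of either LL37 or LL37 + RAPA was left out, 1 without LL37 replicate 2, 8 without LL37 replicate 3 and 2 when LL37 + RAPA replicate 3 was dropped. Of all tested genes, 11.4% were called without LL37 replicate 1, 11.8% without LL37 + RAPA replicate 1, 15.6% without LL37 replicate 2, 34.8% without LL37 replicate 3 and 14.4% without LL37 + RAPA replicate 3. The call for Tnfaip3 was also lost without any single control library or control + RAPA replicate 1 or 2, and that for Nfkb2 without LL37 + RAPA replicate 2. A fit of these 2 groups alone, without the spread of the control groups, called 0 members and 14.3% of all tested genes, with adjusted p from 0.0553 for Rel to 0.0993 for Tnfaip3 among the 5. The log2 fold change of each member kept its sign under all 23 alternatives.

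**Figure D4:**
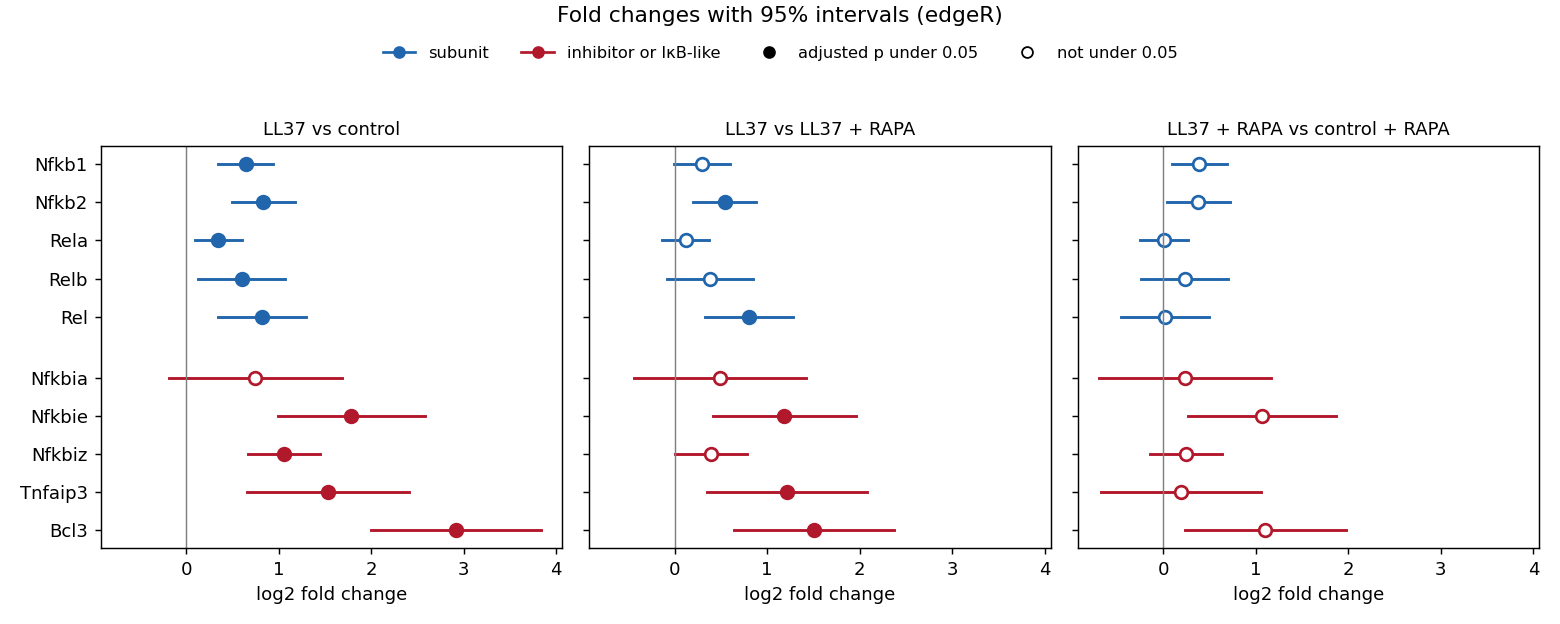
Log2 fold change of each member with its 95% interval (edgeR) in 3 comparisons, subunits above and inhibitors below, filled where the adjusted p was under 0.05. In LL37 vs control 9 points are filled, in LL37 vs LL37 + RAPA 5, and in LL37 + RAPA vs control + RAPA 0.

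What remained different in LL37 + RAPA skin was compared with control and with control + RAPA. Against control, Nfkbiz (log2 fold change 0.67 ± 0.18, adjusted p = 0.0279) and Bcl3 (1.41 ± 0.40, adjusted p = 0.0374) were higher in edgeR, with 14.0% of all tested genes called and 5.03% called higher. Nfkbiz stood at 124, 133 and 153 CPM in LL37 + RAPA libraries, all above its control libraries. Rel differed by 0.01 with a 95% interval from −0.46 to 0.49. Both calls were lost without control replicate 1 or 3 or without LL37 + RAPA replicate 2 or 3, the call for Bcl3 also without control replicate 2 or control + RAPA replicate 1, and without LL37 replicate 3 there were 4 calls, Nfkb1 and Nfkb2 included, and 18.6% of all tested genes were called, with Nfkb1 also called without LL37 replicate 1. Against control + RAPA, 0 members were called by edgeR, while 18.6% of all tested genes were, and 4 (Nfkb1, Nfkb2, Nfkbie and Bcl3) had an unadjusted p under 0.05, as 30.7% of all tested genes had. DESeq2 called 3 members there, Nfkb1, Nfkbie and Bcl3, with 19.1% of all genes it tested. The largest of these log2 fold changes were 1.10 for Bcl3 (95% interval 0.23 to 1.97, edgeR adjusted p = 0.078) and 1.07 for Nfkbie (0.27 to 1.86, adjusted p = 0.0641). Leaving out control replicate 2, LL37 replicate 1, LL37 replicate 2 or LL37 + RAPA replicate 1 gave 1 call each, with 17.7%, 18.1%, 19.0% and 14.7% of all tested genes called, and leaving out LL37 replicate 3 gave 4 with 22.8%.

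In skin without LL37, RAPA was not associated with a called change in edgeR with the filter on low counts and all 12 libraries. Of the 10 members 0 were called in control + RAPA against control, as were 0 of all tested genes (0%) in edgeR, also without LL37 replicate 3, and DESeq2 called 93 of all genes (0.476%) but 0 members. With no filter edgeR called 10 genes, and without control replicate 2 it called 7, with 0 members in either fit. At an unadjusted p under 0.05, 8.65% of all tested genes and 1 member, Nfkbiz, were found. Nfkbiz stood at 126, 127 and 91.2 CPM in control + RAPA against 78.2, 93.9 and 85.9 CPM in control, with replicate 3 inside the control range (log2 fold change 0.42, edgeR unadjusted p = 0.0377, adjusted p = 0.553). Rela libraries were all higher in control + RAPA, at 94.3 to 100.2 CPM against 74.1 to 93.1 CPM, and Nfkb2 libraries were all lower, at 67.9 to 70.9 CPM against 71.4 to 76.7 CPM. Neither passed the test (edgeR adjusted p = 0.637 and 0.92), and 15.7% of all tested genes showed such a separation.

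Whether the LL37 effect differed with and without RAPA was tested by the interaction of LL37 and RAPA. None of the members passed in edgeR with the filter on low counts and all 12 libraries (0 of 10, with 3.28% of all tested genes called), and Bcl3 was called with no filter. At an unadjusted p under 0.05 there were 4 members, Bcl3 (interaction 1.82 on the log2 scale, edgeR adjusted p = 0.0929), Nfkbiz (0.81, adjusted p = 0.092), Rel (0.80, adjusted p = 0.156) and Tnfaip3 (1.34, adjusted p = 0.185), and 22.5% of all tested genes. DESeq2 called 2 of the 10, Bcl3 and Nfkbiz, with 9.9% of all genes it tested. The interaction estimates ran from 0.26 (Nfkb1) to 1.82 (Bcl3), a positive value meaning a larger LL37 effect without RAPA. Without LL37 replicate 3, edgeR called 5 members, namely Nfkb2, Rel, Nfkbiz, Tnfaip3 and Bcl3, and 17.1% of all tested genes.

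The other genes of the pathway were followed in 4 lists, with 1 target gene below the filter. In LL37 against control, 11 of 12 upstream receptors were higher and 0 lower (median log2 fold change 1.38, edgeR), and 17 of 35 signalling genes were higher and 2 lower (median 0.25). Of 20 other inhibitors 5 were higher and 3 lower (median 0.19, against 1.54 for the 5 inhibitor members). This contrast of medians rests on how the inhibitors were divided into lists, with earlier results of these data known. It did not separate the lists gene by gene. Among the other inhibitors, Nfkbid and Zc3h12a each rose by more than 1.54, while the member Nfkbia stood at 0.75 without a call. Of 28 tested inducible target genes 24 were higher and 0 lower (median 2.50). For comparison, 21.0% of all tested genes were called higher and 3891 of 17993 lower. The share called higher was 91.7% of receptors, 48.6% of signalling genes and 85.7% of target genes, while the 25% of other inhibitors was near that of all genes. In LL37 against LL37 + RAPA the counts higher and lower were 5 and 0 for receptors, 16 and 0 for signalling genes, 1 and 1 for other inhibitors and 19 and 0 for target genes. The shares higher were 41.7%, 45.7%, 5% and 67.9% in this order, where 11.8% of all tested genes were higher and 2239 of 17993 lower.

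**Figure D5:**
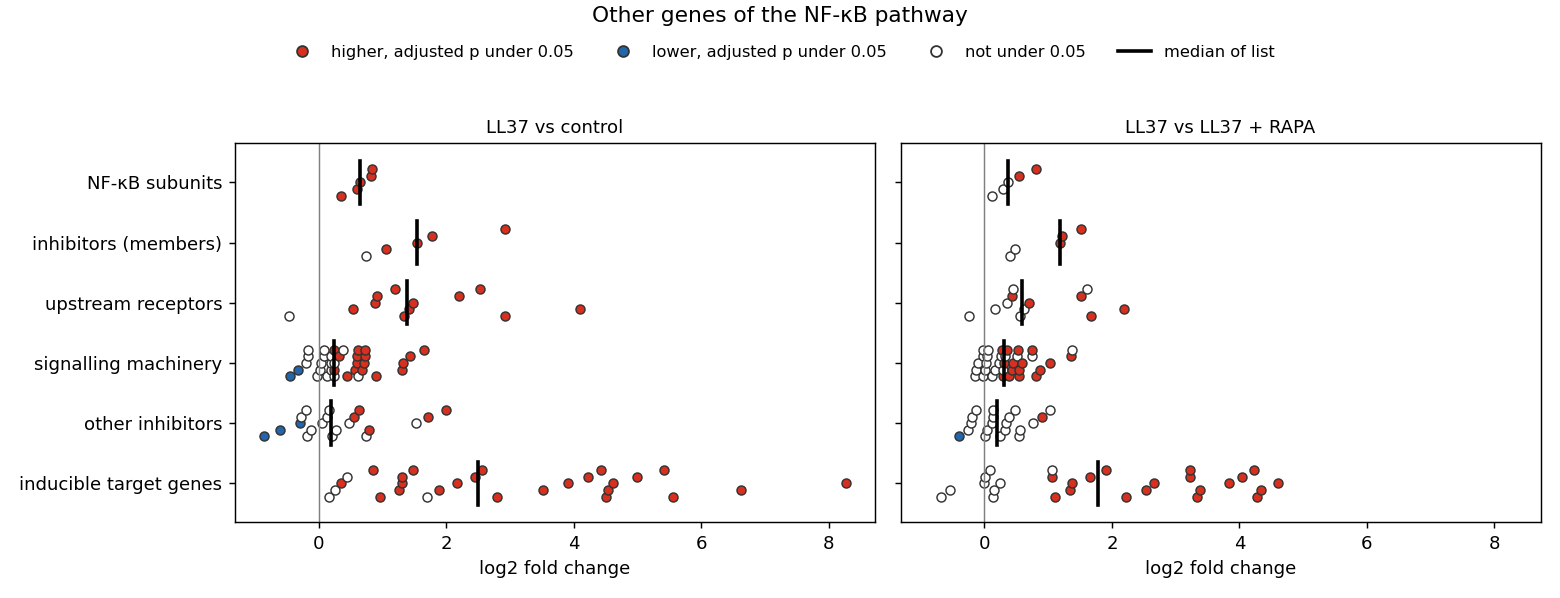
Log2 fold change of each tested gene of the 2 member classes and of 4 further lists of the pathway, for LL37 against control (left) and against LL37 + RAPA (right), with black lines for the median of a list and colours for genes with an adjusted p under 0.05 (edgeR). The median of the target genes was 2.50 in the first and 1.78 in the second comparison, and that of the other inhibitors was 0.19 in both.

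By the rule for named genes, the receptors with the smallest p were Tnfrsf11a, the receptor of RANK ligand (log2 fold change 0.91), Ly96, the MD-2 partner of the lipopolysaccharide receptor (1.34), and Tlr2, a receptor of bacterial lipopeptides (2.92), in LL37 against control. Against LL37 + RAPA they were Tlr2 (2.20), Tnfrsf1b, a TNF receptor (1.52), and Cd40 (1.67). Among signalling genes, the adaptor Myd88 stood at 33.2, 35.2 and 37.5 CPM in control, at 140, 130 and 62.1 CPM in LL37 and at 35.7, 41.6 and 51.6 CPM in LL37 + RAPA libraries. All LL37 libraries of Myd88 were above those of every other group (log2 fold change 1.65 against control and 1.36 against LL37 + RAPA, edgeR adjusted p = 0.00037 and 0.00397). Its partner kinase Irak4 was higher by 1.31 and 0.81, Irak2 by 0.91 and 0.75, and the kinase Tbk1 by 0.68 and 0.53 in the same comparisons, each passing the test, while Tab1 and Traf5 were lower in LL37 than in control, at −0.32 and −0.46. Among the other inhibitors the RNase gene Zc3h12a (1.72), the nuclear IκB gene Nfkbid (2.0) and Irak3 (0.79) rose in LL37 skin, and the deubiquitinase genes Otud7b (−0.60) and Cyld (−0.29) and the IκB-binding Nkiras1 (−0.86) fell. Of the 6, Zc3h12a was also called higher than in LL37 + RAPA (0.90) and Nkiras1 lower (−0.40).

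Some of these calls depended on 1 library. In LL37 against control, the call for Tab1 was lost without control replicate 3 or LL37 replicate 1 or 2, and that for Irak3 without control replicate 2 or 3 or LL37 replicate 1 (edgeR adjusted p up to 0.095 and 0.0982). The call for Cyld was lost without any single control or LL37 library or LL37 + RAPA replicate 1 or 2, and that for Traf5 without the same libraries except control replicate 3, and without control + RAPA replicate 3 (edgeR adjusted p up to 0.198 and 0.167). Against LL37 + RAPA, the call for Cd40 was lost without LL37 replicate 1 or any LL37 + RAPA library, and that for Tnfrsf1b without LL37 replicate 1 or LL37 + RAPA replicate 1 or 3 (edgeR adjusted p up to 0.146 and 0.103). The call for Zc3h12a there was lost without replicate 1 or 2 of LL37 or of LL37 + RAPA, and that for Nkiras1 without any control or LL37 + RAPA library, LL37 replicate 1 or 2 or control + RAPA replicate 3 (edgeR adjusted p up to 0.112 and 0.138).

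The named target genes were Ier3, Cxcl5, Saa3, Ptgs2 and Nos2, and each was higher in LL37 than in control and than in LL37 + RAPA. Cxcl5, a neutrophil-attracting chemokine gene, stood at 299, 371 and 34.4 CPM in LL37 and 0.103 to 1.56 CPM in control libraries (log2 fold change 8.27, edgeR adjusted p = 0.000128). In LL37 + RAPA libraries Cxcl5 stood at 8.21, 40.8 and 26.4 CPM, so that LL37 replicate 3 lay inside that range (log2 fold change 3.22, edgeR adjusted p = 0.0128). Ptgs2, the gene of the cyclooxygenase COX-2, stood at 58.1, 43.3 and 9.99 CPM in LL37 and 1.23 to 3.03 CPM in LL37 + RAPA libraries (log2 fold change 4.04, edgeR adjusted p = 0.0021). In both genes LL37 replicate 3 was the lowest LL37 library, as it was for all 10 members. Against LL37 + RAPA, the call for Saa3 was lost without LL37 replicate 1 or LL37 + RAPA replicate 1 (edgeR adjusted p up to 0.0672).

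Finally, each member's profile of log2 CPM over the 12 libraries was compared with those of the 12425 tested genes of at least 5 CPM on average, by the root mean square difference after centring. The 12 libraries are shared by all profiles, so the values are descriptions. The nearest genes to Nfkb1 were Ripk1 (0.087) and Supt16 (0.090), and the nearest to Nfkb2 were Il15ra (0.090) and Prr13 (0.092). For Rela they were Ptpn23 (0.070) and Srsf4 (0.077), for Relb Shkbp1 (0.12) and Slco2a1 (0.14), and for Rel Irak2 (0.17) and Siah2 (0.18). Among the inhibitors they were Zfp36 (0.22) and Csrnp1 (0.23) for Nfkbia, Syk (0.18) and Entpd1 (0.24) for Nfkbie, and Tnfrsf1a (0.16) and Tfap2a (0.16) for Nfkbiz. Tnfaip3 was nearest to Etv5 (0.26) and Jak2 (0.27), and Bcl3 to Marcksl1 (0.34) and Il4ra (0.35). Within the members, Nfkb1 and Nfkb2 were nearest to each other (0.14), as were Nfkbia and Tnfaip3 (0.35).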

How the data were processed

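RNA libraries of whole mouse skin were made with a kit that does not keep strand. The authors deposited raw counts per gene for the 12 libraries. The study's methods name HTSeq 0.6.0 for counting, while the submitters' processing notes list HISAT2 2.0.5, StringTie 1.3.3b, featureCounts 1.5.0-p3, DESeq2 1.16.1 and the mm10 build, so which counter made the deposited counts is not settled here. All counts were analysed in R 4.3.3 with edgeR 4.0.16 (TMM, filterByExpr by group, quasi-likelihood test over all 12 libraries, Benjamini-Hochberg adjustment). A gene was called at an adjusted p under 0.05, and the study's added limit of an absolute log2 fold change above 1 was an alternative. Log2 CPM used a prior count of 2. Symbols and exon lengths came from GENCODE for 52403 of 52636 genes.

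The members and gene lists were chosen with earlier results of these data known. All 10 members are named, with, from each other pathway list, the 3 called genes of smallest p per direction when LL37 was compared with control or with LL37 + RAPA, and the 2 genes nearest to each member. Alternatives were DESeq2 1.42.0, other normalizations and filters, the compared groups alone, a replicate block and each library left out. Fits were tested on simulated data. In LL37 vs control, 127 of 200 changed genes were recovered there, with 10 false calls. Of the 100 changed by 1 on the log2 scale 46 were recovered, and of the 100 changed by 2 it was 81. Depth is given with the results.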

Additional observations from a re-analysis of the deposited data

Results flagged for a closer look

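In 3 named target genes of NF-κB, the effect of LL37 differed with and without RAPA by the interaction test (edgeR, adjusted over all tested genes). The named genes Nos2 (3.09, adjusted p = 0.0933) and Cxcl5 (2.52, adjusted p = 0.433) were not called. Of 28 tested target genes 4 were called higher and 0 lower, where 1.13% of all tested genes were called higher. The genes were named by small p in comparisons that use the same libraries, so this test is not independent of that choice. For Ier3, an immediate early response gene, the interaction was 2.09 on the log2 scale (adjusted p = 0.0198). Its libraries stood at 25.2 to 34.3 CPM in control, 34.3 to 44.8 CPM in control + RAPA, 101 to 191 CPM in LL37 and 41.0 to 59.7 CPM in LL37 + RAPA. For Ptgs2 the interaction was 3.89 (adjusted p = 0.0402), with 1.19 to 3.52 CPM in control + RAPA and 1.23 to 3.03 CPM in LL37 + RAPA libraries. For Saa3, an acute-phase protein gene, it was 3.75 (adjusted p = 0.0454), with 10.2 to 28.2 CPM in control + RAPA, 47.4 to 97.3 CPM in LL37 + RAPA and 99.9 to 676 CPM in LL37 libraries. The estimates of all 3 genes were positive, a larger LL37 effect without RAPA, in each of 22 alternatives, but the calls depended on single libraries. The call for Ier3 was lost without control replicate 1, control + RAPA replicate 3 or LL37 + RAPA replicate 1 (edgeR adjusted p up to 0.0687). Those for Ptgs2 and Saa3 were lost without any single library other than LL37 replicate 3 (edgeR adjusted p up to 0.111 and 0.122). Without LL37 replicate 3 the edgeR adjusted p was 0.000103 for Ier3, 0.000867 for Ptgs2 and 0.00121 for Saa3.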

How the results depend on the processing

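Of 1370 refitted values of the 10 members over all comparisons, 1208 kept their sign and their side of the threshold, 64 lost a call, 66 gained one and 32 changed sign, none of the latter called. Percentages in brackets give the share of all genes tested in that fit that were called. In LL37 vs control, 9 members were called (42.6%), 4 with the fold limit (19.5%) and 7 to 10 when a library was left out (31.8% to 47.8%). In LL37 vs LL37 + RAPA, 5 were called (24.2%), 0 in a fit of the compared groups alone (14.3%) and 3 with the fold limit (10.1%). There were 9 without all 4 replicate 3 libraries (24.4%) and 0 to 8 when a library was left out (11.4% to 34.8%). In LL37 + RAPA vs control, 2 were called (14.0%), 4 with scaling by library size only (18%) and 1 with the fold limit (6.49%). There were 0 to 4 when a library was left out (7.45% to 18.6%). In LL37 + RAPA vs control + RAPA, 0 were called (18.6%), 4 with library size only (24.1%) and 2 with no filter (9.59%). With at least 10 counts in every library 1 was called (20%), with DESeq2 3 (19.1%) and with the compared groups alone 4 (24.9%). There was 1 without all 4 replicate 3 libraries (12.4%) and 0 to 4 when a library was left out (10.8% to 22.8%). For the interaction, 0 were called (3.28%), 1 with no filter (3.32%) and 2 with DESeq2 (9.9%). There were 4 without all 4 replicate 3 libraries (7.47%) and 0 to 5 when a library was left out (0.0108% to 17.1%). Why these counts moved was not tested. Scaling by library size only moved the median of all genes to 0.13, 0.18 and −0.11 in LL37 + RAPA vs control, LL37 + RAPA vs control + RAPA and the interaction, so members are read relative to it.

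Same-numbered libraries correlated at −0.19 to 0.26 in their deviations from group means, above 0.1 in 4 of 18 pairs. Since 6 of 18 correlated best with their own number, the replicate numbers were not read as pairs of samples. Control replicate 3 did correlate best with replicate 3 of control + RAPA (0.085) and of LL37 + RAPA (0.26). The same held for control + RAPA replicate 3 with LL37 + RAPA replicate 3 (0.14). The replicate 3 pairs with LL37 were not best matches. Whether replicate 3 libraries shared a factor was not tested. With the replicate block, 10 members were called in LL37 vs control (41.3% of all tested genes), 4 in LL37 vs LL37 + RAPA (21.5%) and 1 in LL37 + RAPA vs control (12.4%). In the others 0 were called, with 17.0% of all tested genes in LL37 + RAPA vs control + RAPA, 1.28% for the interaction and 0% in control + RAPA vs control. Nfkbia was then called in LL37 vs control (0.66, edgeR adjusted p = 0.0187), while the calls for Nfkbie in LL37 vs LL37 + RAPA (adjusted p = 0.0593) and Bcl3 in LL37 + RAPA vs control (adjusted p = 0.0735) were lost, as were the interaction calls for Ptgs2 and Saa3 (adjusted p = 0.0889 and 0.0754). Block and omission of LL37 replicate 3 together, added after seeing the data as was leaving out all 4 replicate 3 libraries, gave 10, 9 and 4, with 4 in LL37 + RAPA vs control + RAPA and 4 for the interaction. The shares of all tested genes were 46.0%, 32.5%, 17.4%, 21.6% and 15.4% in the same order.

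Signs changed only in values that were not called. The largest main estimate among them was 0.23, for Nfkbia in LL37 + RAPA vs control + RAPA, followed by 0.19 for Tnfaip3 there. In LL37 + RAPA vs control, Rel was −0.0047 without the skeletal muscle list and −0.19 without all 4 replicate 3 libraries, and −0.15 to 0.15 when a library was left out. In control + RAPA vs control, Nfkbia was −0.035 with library size only, and with the replicate block Relb was 0.017, Rel 0.0013 and Nfkbia −0.044. With the block and without LL37 replicate 3, Relb was 0.0074 and Nfkbia −0.030. With a library left out there, Relb ran from −0.20 to 0.12, Rel from −0.18 to 0.11, Nfkbia from −0.22 to 0.34 and Tnfaip3 from −0.078 to 0.35. In LL37 + RAPA vs control + RAPA, Rela was −0.0046 without the muscle list, Rel was −0.10 without all 4 replicate 3 libraries, and with a library left out Rela ran from −0.068 to 0.080, Rel from −0.049 to 0.14, Nfkbia from −0.086 to 0.48 and Tnfaip3 from −0.081 to 0.39.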

Other observations

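Because Nfkbia and Tnfaip3 were lowest in replicate 3 of each group, 9 immediate early genes, chosen after the values of the members had been seen, were read in the same libraries. Fos, Fosb, Egr1, Dusp1 and Ier2 were lowest in replicate 3 of all 4 groups, as were 533 of all tested genes (2.96%). Egr1, a zinc finger factor gene, stood at 199, 257 and 47.3 CPM in control, 287, 281 and 70.9 CPM in control + RAPA, 211, 211 and 106 CPM in LL37 and 246, 218 and 80.0 CPM in LL37 + RAPA libraries. Dusp1, a MAP kinase phosphatase gene, stood at 316, 271 and 121 CPM in control and at 456, 386 and 138 CPM in LL37 libraries. Junb and Nr4a1 were lowest in replicate 3 of 3 groups and Jun and Atf3 in 2. The nearest profiles to Nfkbia were those of Zfp36 and Csrnp1, at 0.22 and 0.23 on the log2 scale.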
